A study of Sus scrofa with 226 samples.

Results

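ETV1, RUNX1, RUNX3, ISL1, POU4F1, FOXP2 and ZNF521 encode transcription factors with known roles in the making of sensory neurons or in the choice between neuron types. These 7 genes were taken by name from the 30420 genes of the table, and each symbol matched 1 pig identifier. Their levels were read in single neurons of the dorsal root ganglion, the cluster of sensory cell bodies beside the spinal cord, from 10 wild-type pigs (6 to 35 neurons each). Neurons were dissociated from cervical, thoracic and lumbar ganglia, cultured, recorded by patch clamp and then drawn into a pipette for Smart-Seq2 sequencing, so that every neuron has both a transcriptome and a set of electrical values. The study set out to find molecular markers of the mechano-insensitive C-fibre, a nociceptor type linked to neuropathic pain.

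The neurons were read in 3 marker classes and against the remaining neurons of the same animals. OSMR-positive neurons (66, or 29.2% of all) had at least 50 CPM (counts scaled to a common total per neuron) of OSMR, a subunit of the oncostatin M receptor. ADCYAP1-high neurons (61.5%) had at least 200 CPM of ADCYAP1, the gene of the neuropeptide PACAP. TRPM8-positive neurons (60, or 26.5%) had at least 20 CPM of TRPM8, the cold-sensing channel. The classes are ranges of 1 gene and not cell types, and 52 neurons passed more than 1 cutoff while 16 passed none. The OSMR values nearest its cutoff were 50.3 CPM above and 47.9 CPM below it. For ADCYAP1 they were 214.2 and 173.98 CPM, and for TRPM8 21.1 and 20.0 CPM, where 32 neurons lay within a factor of 2 under the cutoff. The animals were 11, 12, 14, 15, 17, 18 or 20 weeks old. Of the neurons, 54.9% (10 animals) had spent 1 day in culture, 34.5% (78 neurons, 9 animals) 2 days and 10.6% (24 neurons, 3 animals) 3 days.

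In mouse, a shared program switched on by ISL1, a LIM homeodomain factor, and POU4F1 (BRN3A), a POU homeodomain factor, gives early sensory neurons their common identity. RUNX1 then sets the nociceptor program, in which it represses or activates channels and growth factor receptors, while RUNX3 and the ETS factor ETV1 (ER81) serve the large proprioceptors that read muscle stretch. FOXP2 is a forkhead repressor best known for its part in speech and motor circuits. ZNF521 is a zinc finger protein that binds and restrains EBF factors. How these roles carry over to pig is not given by the labels.

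Neuronal genes were present throughout, with counts of SNAP25, UCHL1, NEFL and STMN2 in 100% of neurons, while RBFOX3 had counts in 71. Total counts per neuron ran from 109726 to 5506278 with a median of 740524.5. Markers of other cells were present beside the neuronal ones, and in 26 neurons the summed level of 10 macrophage genes was 500 CPM or more. No pair of neurons had identical values. Gene lengths are not used here, so levels are compared between neurons and not between genes.

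ISL1 (ENSSSCG00000016883) had a count in 92.5% of neurons (exact Clopper-Pearson 95% interval 88.2 to 95.6%, which covers counting error only). Its median was 64.7 CPM and its highest value 1613 CPM. POU4F1 (ENSSSCG00000025334), its partner in the mouse program, had a count in 15 neurons (6.64%, interval 3.76 to 10.7%), with a highest value of 17.3 CPM. The next 4 neurons of POU4F1 held between 3.55 and 5.40 CPM. The paralogues POU4F2 and POU4F3 had a count in 55 and 66 neurons, with highest values of 130.9 and 42.8 CPM.

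RUNX1 (ENSSSCG00000035537) had a count in 79.2% of neurons with a median of 16.2 CPM and a highest value of 241 CPM. RUNX3 (ENSSSCG00000032686) had a count in 26 neurons (11.5%, interval 7.65 to 16.4%) and reached 10 CPM in 2 of them. The highest RUNX3 value, 14.4 CPM, rested on 3 counts. That neuron, and those ranked 2 and 5 for RUNX3, held 6443, 4751 and 6227 CPM of the macrophage genes. RUNX3 is also known from blood cells, and the part of such RNA in its counts was not tested.

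ETV1 (ENSSSCG00000024591) had a count in 87.2% of neurons, with a median of 21.7 CPM, 78 neurons at 100 CPM or more and a highest value of 2491 CPM. FOXP2 (ENSSSCG00000016639) had a count in 45.6% of neurons, reached 10 CPM in 28 and 100 CPM in 3, and its median was 0. ZNF521 (ENSSSCG00000003715) had a count in 53.5% of neurons with a median of 1.43 CPM, and 60 neurons held 10 CPM or more. After each neuron was thinned to 100000 counts the shares with a count were 88.5% for ISL1, 62.8% for ETV1, 62.8% for RUNX1, 34.1% for ZNF521, 20.8% for FOXP2, 2.65% for RUNX3 and 2.21% for POU4F1. Low-level neurons of every member therefore include some in which depth decided whether a count was seen.

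The neurons with the top values of ETV1, ISL1, FOXP2 and ZNF521 were read singly. The top value of ETV1 and the top value of ISL1 (1613 CPM) were the same neuron, from animal 4 at 1 day in culture, which passed none of the 3 marker cutoffs and held 13.4 CPM of OSMR. The next ETV1 value, 1610 CPM, was an ADCYAP1-high neuron of animal 5 with 0 CPM of OSMR. The ETV1 values ranked 3 to 5 (908, 790 and 733 CPM) were neurons that passed the OSMR cutoff alone. The top FOXP2 neuron (446 CPM, animal 3) held 901 CPM of TRPM8. The top ZNF521 neuron (2319 CPM, animal 5) held 33.1 CPM of TRPM8, and the next ZNF521 value was 203.2 CPM.

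**Figure D1:**
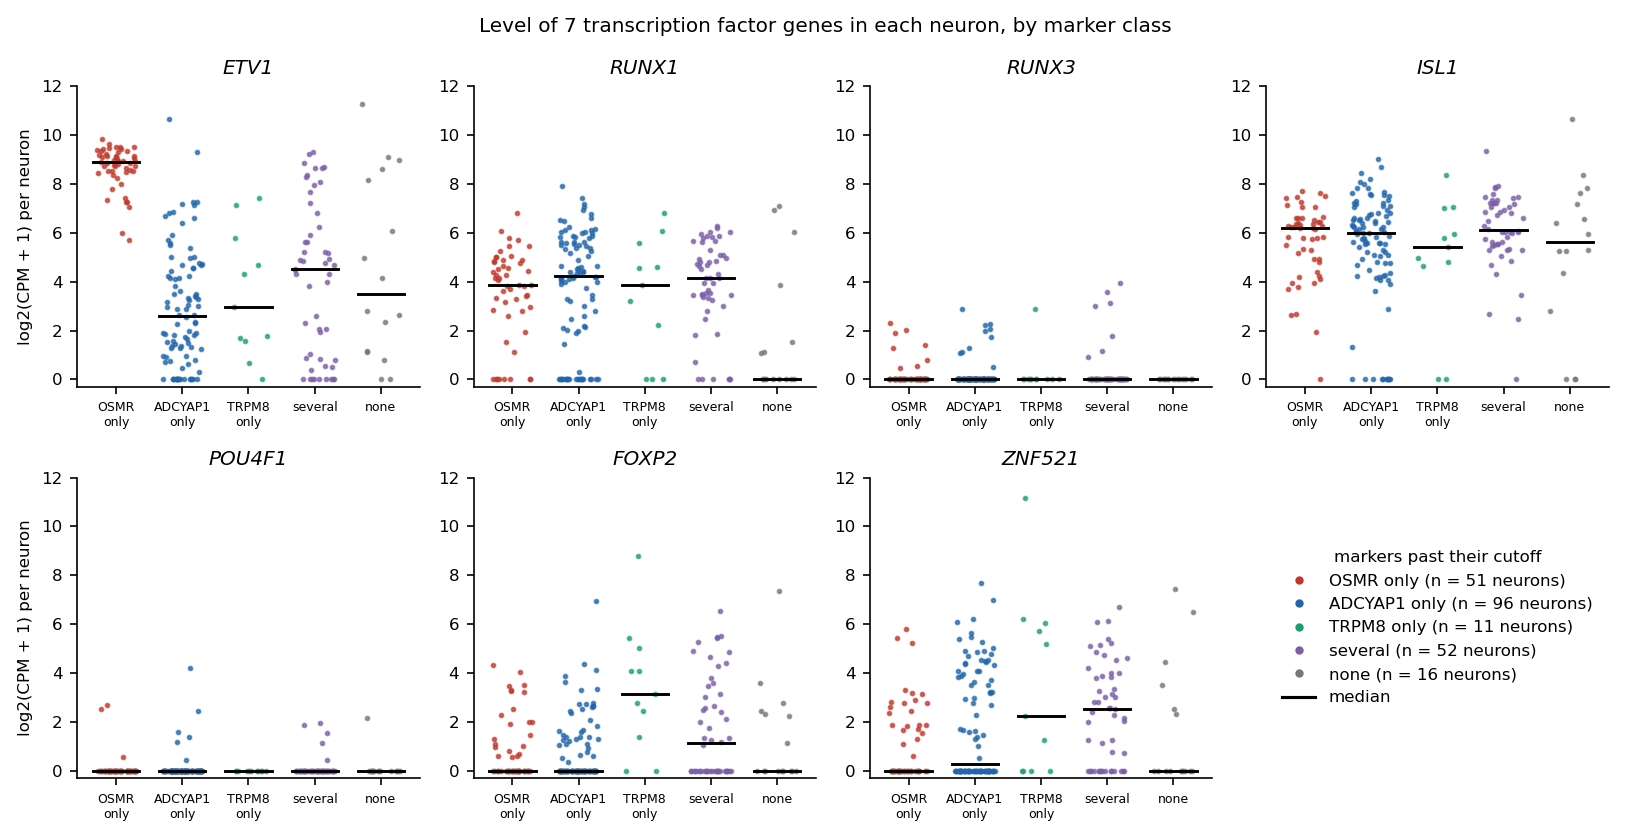
Level of each of the 7 genes in every neuron, as log2(CPM + 1), with neurons sorted by the marker cutoffs they pass (OSMR only 51 neurons, ADCYAP1 only 96, TRPM8 only 11, several 52, none 16); points are neurons and bars are medians. ETV1 is high in the OSMR-only neurons (median 473 CPM) and spread from 0 upward in the other groups, ISL1 is present in all groups, and RUNX3 and POU4F1 lie mostly at 0.

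ETV1 was the member that went with OSMR. It had a count in 66 of 66 OSMR-positive neurons, with a median of 424 CPM, against 81.9% of 160 other neurons and a median of 5.27 CPM. In the OSMR-positive neurons summed per animal, ETV1 ran from 215.8 to 747 CPM with a median of 464 CPM, against 5.55 to 77.01 CPM with a median of 37.7 CPM in the other neurons of the same 8 animals. The 2 groups of sums did not overlap. ETV1 was 12.5-fold higher in OSMR-positive neurons (log2 difference 3.65 ± 0.41, SE, higher in 8 of 8 animals; edgeR's quasi-likelihood test, adjusted p = 5.06e-05). In this comparison 5.04% of 22099 genes tested were called, 2.36% higher and 2.68% lower.

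ZNF521 was the other member called, and it was lower in OSMR-positive neurons. Its sums ran from 0.582 to 8.03 CPM with a median of 2.76 CPM in OSMR-positive neurons, against 4.88 to 101.6 CPM with a median of 17.6 CPM in the other neurons. The ranges overlapped, but within each animal the OSMR-positive sum was the lower in 8 of 8. The difference was 6.10-fold (log2 -2.61 ± 0.42, SE; edgeR's quasi-likelihood test, adjusted p = 0.00118). The call was lost with OSMR cut at 20 CPM (log2 -1.56, adjusted p = 0.200 by the same test) and with neurons at 1 day only (log2 -1.69, adjusted p = 0.245). ZNF521 at 10 CPM or more was seen in 5 of 66 OSMR-positive neurons (7.58%) and in 55 of 160 other neurons (34.4%). A count at any level was seen in 50% of OSMR-positive and 55% of other neurons.

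The remaining members were not called between OSMR-positive and other neurons. RUNX1 differed by -0.83 ± 0.31 (adjusted p = 0.159), FOXP2 by -1.47 ± 0.65 (adjusted p = 0.265), ISL1 by -0.22 ± 0.19 (adjusted p = 0.675) and RUNX3 by 0.71 ± 1.04 (adjusted p = 0.836), all log2 differences ± SE from edgeR's quasi-likelihood test. RUNX1 was lower in 6 of 8 animals and FOXP2 in 7 of 8, so a difference below the reach of 8 animals could be present. Of the 6 members tested 4 had an unadjusted p under 0.05 by edgeR's quasi-likelihood test, beside 3552 of all 22099 genes. POU4F1 did not pass the filter on low counts in any comparison, and RUNX3 passed it in this comparison alone.

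ETV1 and OSMR did not coincide completely in single neurons. ETV1 was at 100 CPM or more in 59 of 66 OSMR-positive neurons (89.4%) and in 19 of 160 other neurons (11.9%), so that 75.6% of the 78 ETV1-high neurons were OSMR-positive. The 19 ETV1-high neurons under the OSMR cutoff came from 6 animals, held a median of 8.63 CPM of OSMR, and 12 of them were ADCYAP1-high. The 59 ETV1-high OSMR-positive neurons came from 10 animals, and 2 of them were ADCYAP1-high. The 7 OSMR-positive neurons with less ETV1 came from 4 animals and 4 of them were ADCYAP1-high.

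The electrical values of these groups differed in description. The deposited duration of the action potential, APD, had a median of 4.05 in ETV1-high OSMR-positive neurons, 2.94 in ETV1-high neurons under the OSMR cutoff and 2.72 in the neurons low in both, in the unit as deposited. The diameter had a median of 42.6, 40.2 and 33.9 in the same 3 groups. The response at 100 Hz stimulation, which ran from 0 to 20, had a median of 2, 3 and 7. At 20 Hz the medians were 9, 20 and 20, so there the ETV1-high neurons under the OSMR cutoff equalled the neurons low in both. The 7 OSMR-positive neurons with less ETV1 had medians of 2.67 for APD, 30.75 for diameter, 10 at 100 Hz and 20 at 20 Hz. In medians, ETV1-high neurons under the OSMR cutoff lay nearest the ETV1-high OSMR-positive ones in diameter and nearer the neurons low in both in APD. Groups cut in this way were not tested.

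**Figure D2:**
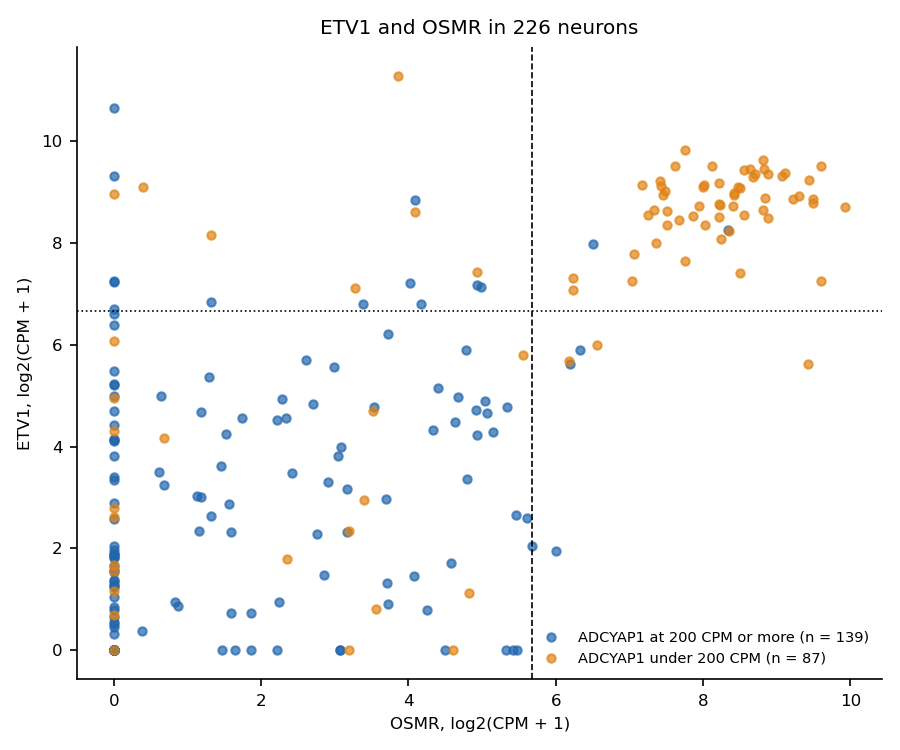
ETV1 against OSMR in each neuron, both as log2(CPM + 1); the dashed line is the OSMR cutoff of 50 CPM and the dotted line ETV1 at 100 CPM, and the colour shows whether ADCYAP1 was at 200 CPM or more. Of the neurons above the OSMR cutoff 59 lie above the ETV1 line and 7 below it, and 19 neurons lie above the ETV1 line but left of the OSMR cutoff.

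In the ADCYAP1 comparison ETV1 was the single member called, and it was lower in ADCYAP1-high neurons. Only 6 of the 66 OSMR-positive neurons were ADCYAP1-high, so this comparison shares most of its neurons with the OSMR comparison in reverse, and each is given by its own values. ETV1 sums ran from 3.24 to 74.4 CPM with a median of 30.9 CPM in ADCYAP1-high neurons, against 137.2 to 674 CPM with a median of 353 CPM in the other neurons of the same 9 animals. The 2 groups of sums did not overlap. ETV1 was 18.0-fold lower in ADCYAP1-high neurons (log2 -4.17 ± 0.46, SE, lower in 9 of 9 animals; edgeR's quasi-likelihood test, adjusted p = 7.89e-05), in a comparison in which 5.07% of 22125 genes were called, 3.47% higher and 1.6% lower.

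The other 4 members tested between ADCYAP1-high and other neurons did not pass. The log2 differences were 0.70 ± 0.37 for RUNX1 (adjusted p = 0.360), 0.99 ± 0.79 for ZNF521 (adjusted p = 0.592), 0.80 ± 0.97 for FOXP2 (adjusted p = 0.755) and 0.28 ± 0.19 for ISL1 (adjusted p = 0.523), with SE, from edgeR's quasi-likelihood test. ZNF521 was higher in 7 of 9 animals, and animal 5 held the neuron with 2319 CPM on the other side. Without animal 5 the ZNF521 difference was 1.52 (adjusted p = 0.284 by the same test), and without animal 3 it was 0.47 (adjusted p = 0.829). With neurons at 1 day only, which are fewer and a different set, it was 2.77 (adjusted p = 0.0462).

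No member passed between TRPM8-positive and other neurons, where TRPM8 itself was the 1 gene called of 22345 (0.00448%). FOXP2 came nearest. Its sums ran from 0.543 to 202.6 CPM with a median of 7.88 CPM in TRPM8-positive neurons, against 0.420 to 17.3 CPM with a median of 1.56 CPM in the other neurons. The ranges overlapped, and the TRPM8-positive sum was higher in 7 of 8 animals (log2 2.19 ± 0.64, SE; edgeR's quasi-likelihood test, unadjusted p = 0.00489, adjusted p = 0.985). DESeq2 called FOXP2 with an adjusted p of 0.0234. At 10 CPM or more FOXP2 was seen in 17 of 60 TRPM8-positive neurons (28.3%) and in 11 other neurons (6.63%).

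The other members of the TRPM8 comparison had log2 differences of -1.86 ± 0.82 for ETV1 (unadjusted p = 0.0411), 0.38 ± 0.21 for ISL1, -0.44 ± 0.29 for RUNX1 and 0.46 ± 1.12 for ZNF521, with SE and an adjusted p of 0.985 or more by edgeR's quasi-likelihood test. Of the 5 members tested 2 had an unadjusted p under 0.05, beside 843 of all 22345 genes, and DESeq2 called FOXP2 alone of the members and 52 genes in all. ISL1 was higher in TRPM8-positive neurons in 7 of 8 animals, with 100 CPM or more in 25 of 60 TRPM8-positive neurons (41.7%) and in 42 other neurons (25.3%). ZNF521 sums in TRPM8-positive neurons ran from 0 to 711 CPM, with the highest in the animal of the 2319 CPM neuron. Macrophage genes had a median of 106.2 CPM in TRPM8-positive neurons and 52.3 CPM in other neurons, and their part was not tested. Among the paralogues, cofactors, other transcription factors and injury-induced factors 0 of 8, 12, 23 and 9 genes were called here by edgeR, with 0, 1, 1 and 0 at an unadjusted p under 0.05. The median log2 difference over all genes was -0.15 in this comparison and -0.06 in the OSMR comparison.

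**Figure D3:**
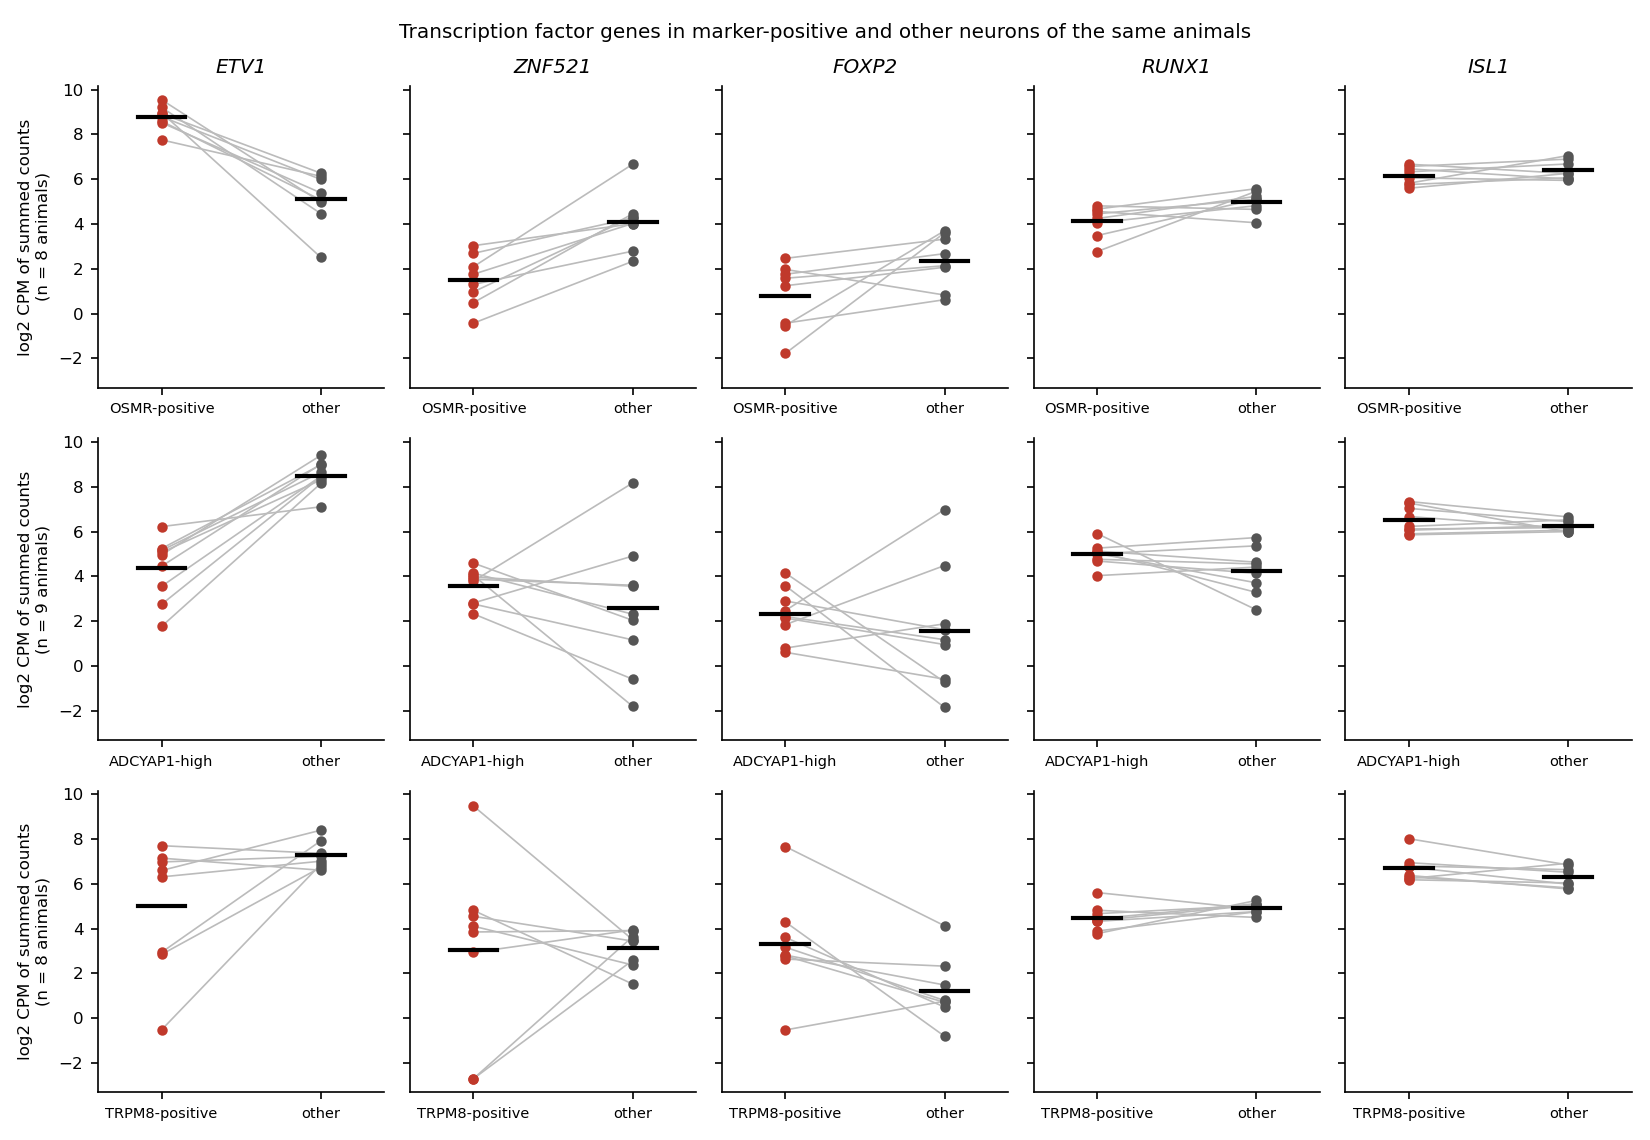
Log2 CPM of the counts summed per animal in marker-positive neurons (red) and in other neurons (grey) of the same animal, for 5 members (columns) and the OSMR, ADCYAP1 and TRPM8 comparisons (rows, 8, 9 and 8 animals); grey lines join the same animal and black bars are means. The ETV1 sums separate without overlap in the OSMR and ADCYAP1 rows, the ZNF521 sums are lower in OSMR-positive neurons in each of 8 animals, and the FOXP2 sums are higher in TRPM8-positive neurons in 7 of 8.

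Levels of other cells' genes differed between the OSMR classes as well. The summed level of 8 Schwann cell genes ran from 270 to 3310 CPM with a median of 1429 CPM in OSMR-positive neurons, against 0 to 2826 CPM with a median of 916 CPM in other neurons. Of its 7 genes tested PMP22, a myelin protein gene also found in neurons, was the 1 called (log2 1.08). The myelin genes PRX and MAG had a count in 7 and 3 of all neurons. The summed level of 6 fibroblast genes ran from 0 to 483 CPM with a median of 33.5 CPM in OSMR-positive neurons, against 0 to 1149 CPM with a median of 10.9 CPM in other neurons, and of its 6 genes DCN (decorin) was called (log2 5.01). DCN was also the 1 fibroblast gene with an unadjusted p under 0.05 by edgeR's quasi-likelihood test. The median log2 difference of the 6 fibroblast genes was -0.52, so the list as a whole was not higher in OSMR-positive neurons. Macrophage genes had medians of 59.8 CPM in OSMR-positive and 62.97 CPM in other neurons, with 0 of 9 called by edgeR's quasi-likelihood test and 2 at an unadjusted p under 0.05. In ADCYAP1-high neurons PMP22 (log2 -0.79), DCN (log2 -3.88) and the myeloid gene FCER1G (log2 -2.73) were lower and CD68, a lysosomal macrophage gene, was higher (log2 1.87). The summed Schwann level there had a median of 947 CPM, against 1249 CPM in the other neurons. The part of the Schwann and fibroblast genes in the ETV1 differences was not tested. ETV1 kept its call in both comparisons when the 26 neurons high in macrophage genes were left out.

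Among the paralogues of the members, ISL2, the closest relative of ISL1, was the 1 called of 8 tested between OSMR-positive and other neurons. It was higher in OSMR-positive neurons (mean log2 CPM 6.01 ± 0.51 against 4.66 ± 0.89, SD, n = 8 animals; log2 difference 1.36, edgeR's adjusted p = 0.00339), while ISL1 itself was not called. In ADCYAP1-high neurons ISL2 was lower (log2 -1.53, adjusted p = 0.00228), and ETV5 and POU4F3 were higher (log2 1.67, adjusted p = 0.0432, and log2 2.43, adjusted p = 0.0250, all from edgeR's quasi-likelihood test). ETV5, an ETS factor like ETV1, therefore ran the other way from ETV1. Its call was lost without any 1 of the animals other than animal 6 (adjusted p up to 0.135) and with size factors (0.0583). It was also lost at the lower cutoff (0.0932), against other neurons above another cutoff only (0.0719) and with neurons at 1 day only (0.132). POU4F3 lost its call without animal 1, 3, 9 or 10 (adjusted p up to 0.0697) and without macrophage-high neurons (0.0973). The POU4F3 call was also lost at the higher cutoff (log2 1.25, adjusted p = 0.282) and with neurons at 1 day only (0.341), all by edgeR. ISL2 lost its OSMR call with OSMR cut at 20 CPM (log2 0.81, adjusted p = 0.105) and its ADCYAP1 call with limma (0.121). The median log2 difference of the 8 paralogues was -0.32 in the OSMR comparison, beside -0.06 over all genes.

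Of the cofactors that LIM, RUNX and forkhead factors are known to bind, 3 of 12 tested were called in the OSMR comparison. LDB2, which bridges LIM homeodomain proteins, was higher in OSMR-positive neurons (log2 1.36, adjusted p = 0.000464), and so was the Groucho corepressor TLE1 (log2 1.76, adjusted p = 0.000506). TLE3, another Groucho corepressor, was lower (log2 -1.73, adjusted p = 0.0143). In ADCYAP1-high neurons the same 3 genes were called, LDB2 (log2 -1.99, adjusted p = 0.000117) and TLE1 (log2 -1.37, adjusted p = 0.0395) lower and TLE3 (log2 2.12, adjusted p = 0.00905) higher. All these values come from edgeR's quasi-likelihood test. TLE1 lost its ADCYAP1 call without animal 1, 2, 4, 6, 7 or 9 (adjusted p up to 0.0896), with limma (0.245), at the higher cutoff (0.0768) and without macrophage-high neurons (0.0705). TLE3 lost its OSMR call with limma (adjusted p = 0.0797), with OSMR cut at 20 CPM (0.0715), without neurons above several cutoffs (0.0581) and with neurons at 1 day only (0.137), and its ADCYAP1 call at the higher cutoff (0.0801). LDB2 lost its OSMR call with OSMR cut at 20 CPM (log2 0.83, adjusted p = 0.111).

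Of 24 further sensory neuron transcription factors tested, 0 were higher and 2 were lower in OSMR-positive neurons. These were BCL11A, a zinc finger repressor (mean log2 CPM -0.07 ± 1.71 against 3.501 ± 0.44, SD, n = 8 animals; log2 difference -3.51, edgeR's adjusted p = 0.00125), and EBF2, a helix-loop-helix factor of the family that ZNF521 binds (log2 -3.39, adjusted p = 0.0295). In ADCYAP1-high neurons BCL11A was higher (log2 3.46, adjusted p = 0.00238), as was EBF2 (log2 3.27, adjusted p = 0.0128 by edgeR's quasi-likelihood test). EBF2 lost its OSMR call without animal 1, 2, 4, 7 or 9 (adjusted p up to 0.107), with no animal block (0.179), with limma (0.0938) and with OSMR cut at 20 CPM (0.583), and its ADCYAP1 call without animal 9 (0.0527) and with neurons at 1 day only (0.309). BCL11A lost its OSMR call with OSMR cut at 20 CPM (log2 -1.28, adjusted p = 0.534), and its ADCYAP1 call with no animal block (log2 1.93, adjusted p = 0.137) and at the higher cutoff (log2 1.88, adjusted p = 0.0501). EBF1 had a count in 99.6% of neurons with a median of 621 CPM.

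Of 14 genes whose level in mouse sensory neurons depends on a member, 3 were higher and 3 lower in OSMR-positive neurons, with a median log2 difference of -0.26. SCN11A, the sodium channel Nav1.9, was higher (mean log2 CPM 9.35 ± 0.31 against 6.34 ± 0.58, SD, n = 8 animals; log2 difference 3.03, edgeR's adjusted p = 2.96e-07). SCN10A (Nav1.8) and RET, the receptor of GDNF family ligands, were higher by 1.38 and 0.82 on the log2 scale. The irritant receptor TRPA1 was lower by a log2 difference of -2.99 (adjusted p = 0.000415, edgeR), and so was TRPM8 (-3.24). In ADCYAP1-high neurons TRPA1 (log2 3.47) was higher and SCN11A (log2 -2.53) was lower, with 11 of 14 not called. TRPM8 lost its OSMR call with OSMR cut at 20 CPM (log2 -1.17, adjusted p = 0.677), without neurons above several cutoffs (-1.29, 0.372) and with limma (-0.85, 0.185). RET lost its call with OSMR cut at 20 CPM (log2 0.57, adjusted p = 0.0563) and with neurons at 1 day only (0.79, 0.0801), and SCN11A lost its ADCYAP1 call with limma (-1.48, 0.0817). RUNX1, on which several of these genes depend in mouse, was called in neither comparison, and its part in these differences was not tested.

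Of the 9 injury-induced factors tested, SMAD1, a mediator of bone morphogenetic protein signals, was lower in OSMR-positive neurons (log2 -1.72, adjusted p = 0.00144) and higher in ADCYAP1-high neurons (log2 2.42, adjusted p = 0.0023). The OSMR call of SMAD1 was lost with OSMR cut at 20 CPM (log2 -0.90, adjusted p = 0.125). KLF6 was higher in ADCYAP1-high neurons (log2 1.04, adjusted p = 0.00584, all by edgeR's quasi-likelihood test). ATF3, the usual sign of a cut axon, had a count in 90.3% of neurons with a median of 117.8 CPM, and was called in neither comparison. The levels of these genes in intact ganglia were not measured.

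Within animals the levels of some members went together. Spearman's rho was taken within each of the 9 animals with at least 10 neurons (220 neurons) and averaged, and neurons of an animal share its preparation and depth range, so the values are descriptions. ETV1 had a mean rho of 0.57 with OSMR (0.32 to 0.74, positive in 9 of 9 animals) and of -0.58 with ADCYAP1 (negative in 9 of 9). FOXP2 had 0.26 with TRPM8 (positive in 8 of 9), ZNF521 0.24 (7 of 9) and ISL1 0.22 (8 of 9). With OSMR, ZNF521 had a mean rho of -0.05, positive in 4 and negative in 5 of 9 animals. RUNX1 went with ZNF521 (0.37, 9 of 9) and with ISL1 (0.23, 9 of 9). RUNX1 also went with total counts (0.38, 9 of 9) and ZNF521 with the number of genes seen (0.29, 9 of 9), and the part of depth in their pairing was not tested. ETV1 had -0.05 with total counts and -0.12 with RUNX1.

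The 3 genes with a symbol nearest to each member were ranked by the same mean rho over 10822 genes. For ETV1 they were KLHL14 (0.64), SLC5A7, the high-affinity choline transporter (0.63), and GNA14, a G protein alpha subunit (0.63), each positive in 9 of 9 animals. For RUNX1 they were POMGNT2 (0.45), TTC39B (0.44) and BTG3 (0.43). For ZNF521 they were GPR37 (0.42), POMGNT2 (0.39) and TRPM7 (0.38), so that POMGNT2 stood on both lists. For FOXP2 they were ELMOD1 (0.34), BEX5 (0.31) and the sodium channel gene SCN1A (0.31), and for ISL1 FBXW7 (0.36), SLC10A7 (0.35) and TADA1 (0.33). RUNX3 gave GM2A (0.40), RARRES1 (0.35) and TMEM150A (0.35) over 8 animals, and POU4F1 PLPP4 (0.30), UMAD1 (0.29) and STX18 (0.29) over 6, on counts too sparse to read further.

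Size and firing were then compared between neurons above and at or below the animal's own median of each factor. A factor name such as ETV1-high means above that median from here on, and not 100 CPM or more as before. The ETV1 median ran from 2.17 CPM in animal 6 to 324 CPM in animal 1. The cell table states no units, and its parameters are called here by their column names. The test was an exact sign-flip test, 2-sided, of the differences in the animals. Of the pairs of 7 factors with 24 parameters, 0 passed after adjustment over all pairs (0%), and 23 had an unadjusted p under 0.05, 11 of them for ETV1. With 10 animals this test cannot go below p = 0.00195, which 6 ETV1 pairs reached with an adjusted p of 0.0547. The values below describe these pairs, and none is a call.

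ETV1-high neurons were the larger in 10 of 10 animals. The animal mean of the diameter ran from 36.5 to 42.6 with a median of 40.7 in ETV1-high neurons, against 32.2 to 38.3 with a median of 33.8 in ETV1-low neurons. The means were 40.0 ± 2.01 and 34.7 ± 2.24 (SD, n = 10 animals), a difference of 5.37 (exact sign-flip p = 0.00195, adjusted p = 0.0547). The slow capacitance, which grows with membrane area, averaged 89.7 ± 16.7 in ETV1-high and 59.9 ± 10.5 in ETV1-low neurons and was higher in 10 of 10. The ranges of the animal means of the 2 groups overlapped for both values, and the test compared the groups within each animal.

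ETV1-high neurons followed fast stimulation less often in each animal. The value at 50 Hz ran from 4.50 to 13.3 with a median of 8.84 in ETV1-high neurons, against 9.14 to 16.3 with a median of 14.3 in ETV1-low neurons. This was the pair with the largest standardised difference, -0.79, and it was negative in 10 of 10 animals (exact sign-flip p = 0.00195, adjusted p = 0.0547). The value at 20 Hz averaged 13.7 in ETV1-high and 18.3 in ETV1-low neurons, and the value at 100 Hz 4.61 and 7.74, both lower in 10 of 10. The column pA_threshold averaged 147.01 in ETV1-high and 45.5 in ETV1-low neurons, higher in 10 of 10.

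The action potential of ETV1-high neurons was longer in 9 of 10 animals. APD ran from 2.62 to 5.45 with a median of 3.43 in ETV1-high neurons, against 2.54 to 3.17 with a median of 2.73 in ETV1-low neurons (exact sign-flip p = 0.00391, adjusted p = 0.082). The rheobase averaged 177.8 in ETV1-high and 117.7 in ETV1-low neurons and was higher in 9 of 10 animals with the same p. The column HS_Threshold averaged 318.7 in ETV1-high and 208.9 in ETV1-low neurons, higher in 8 of the 8 animals that had it (exact sign-flip p = 0.00781, adjusted p = 0.146). ETV1-high neurons also held more Schwann genes (1291 against 869 CPM, higher in 9 of 10 animals) and fibroblast genes (62.04 against 23.03 CPM, 9 of 10). Satellite glia genes were higher in 8 of 10 animals (575 against 341 CPM), genes with a count in 7 of 10 and total counts in 4 of 10. The part of these measures was not tested.

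ETV1 contrasts were smaller among neurons outside the OSMR class, but the split was not the same. Here ETV1-high means above the animal's own median among the neurons of the set alone. The ETV1 median was 5.27 CPM under the OSMR cutoff and 5.25 CPM in ADCYAP1-high neurons, against 21.7 CPM in all neurons. The values below therefore compare other ETV1 levels than those above. Among neurons under the OSMR cutoff the ETV1 difference in diameter was 2.44 (exact sign-flip p = 0.0469, adjusted p = 0.761), beside 5.37 among all neurons. The difference at 50 Hz was -1.99, beside -5.27, and that in APD was 0.202, beside 0.79. Among ADCYAP1-high neurons the difference in diameter was 2.52 (exact sign-flip p = 0.00781, adjusted p = 0.328), that in slow capacitance 14.4 and that in APD -0.0963. Whether the contrasts differ between these sets of neurons was not tested.

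**Figure D4:**
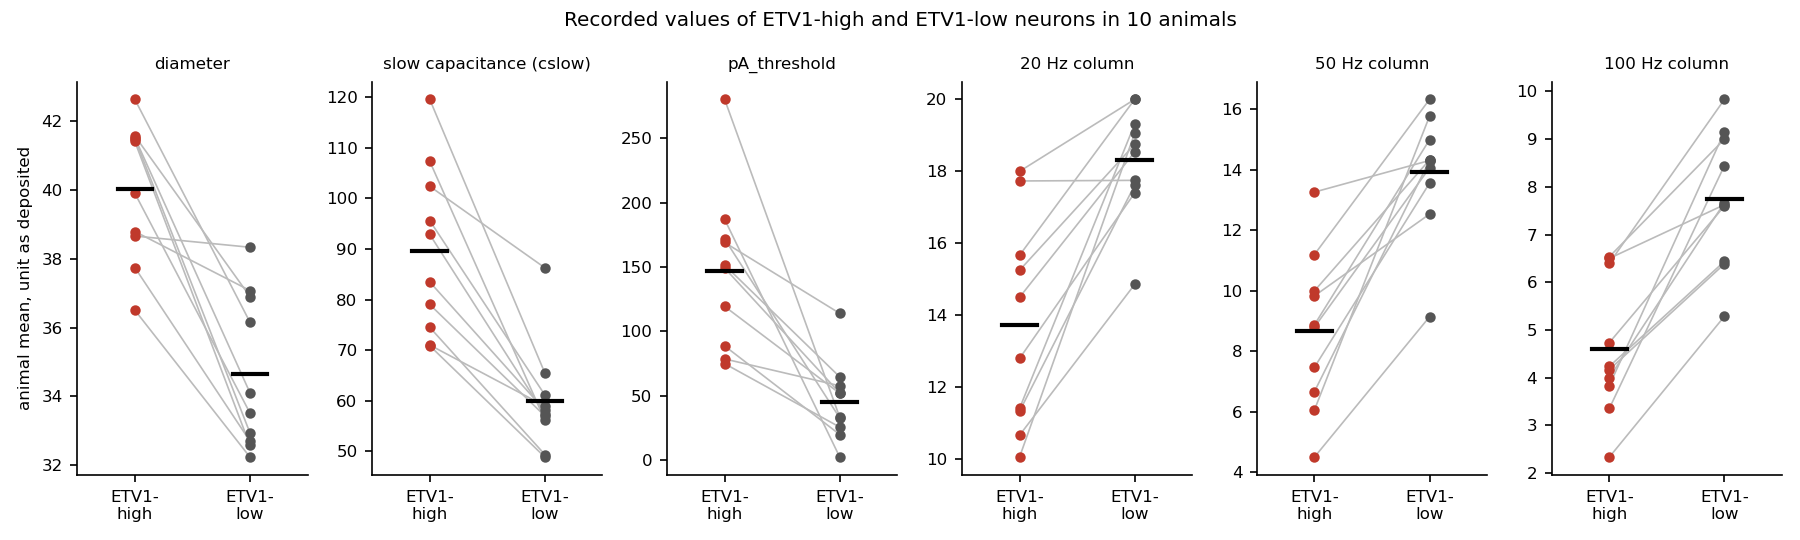
Animal means of 6 recorded values in ETV1-high (red) and ETV1-low (grey) neurons of 10 animals, in the units as deposited. Neurons are split at the animal's own ETV1 median, lines join the same animal and black bars are means. Diameter, slow capacitance and pA_threshold are higher in ETV1-high neurons in 10 of 10 animals, and the values at 20, 50 and 100 Hz are lower in 10 of 10.

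For the other 6 factors the largest standardised pair was small or rested on few animals. RUNX3-detected neurons had a pA_threshold higher by 104.99 than that of the other neurons, which averaged 79.01, and it was higher in 6 of 6 animals (exact sign-flip p = 0.0313, the smallest that 6 animals allow, adjusted p = 0.239). Of the 24 RUNX3 pairs 8 had this p. Among them, RUNX3-detected neurons had a slow capacitance higher by 17.1, and values at 50 and 100 Hz that differed by -2.99 and -2.76. The same neurons held 1130 CPM of macrophage genes against 260 CPM, higher in 6 of 6, and the part of these genes was not tested. ZNF521-high neurons had a shorter APD, 2.97 against 3.41, in 7 of 10 animals (exact sign-flip p = 0.0469, adjusted p = 0.342). They also had more genes with a count in 10 of 10 animals (14266 against 11835) and more total counts in 8 of 10, and the part of depth was not tested. FOXP2-high neurons differed in APD by -0.339 on average over 9 animals (adjusted p = 0.55, exact sign-flip test). The median was 0 in animals 1, 2, 5, 6 and 7 for FOXP2 and in animals 1, 2, 3 and 6 for ZNF521. In these animals high means any level above 0.

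ISL1-high neurons differed in pA_threshold by -45.02 on average (adjusted p = 0.712, exact sign-flip test), and their values at 2, 4 and 10 Hz had an unadjusted p under 0.05. RUNX1 gave no pair with an unadjusted p under 0.05, and its largest was subthresh_slope_0.5, a difference of -1.80 in RUNX1-high neurons (adjusted p = 0.712, exact sign-flip test). RUNX1-high neurons were the deeper ones in 10 of 10 animals, with 1216830 counts per neuron against 868655. POU4F1 could be split in 3 animals, where AP_max was higher by 5.75 and the smallest possible exact p is 0.25.

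**Figure D5:**
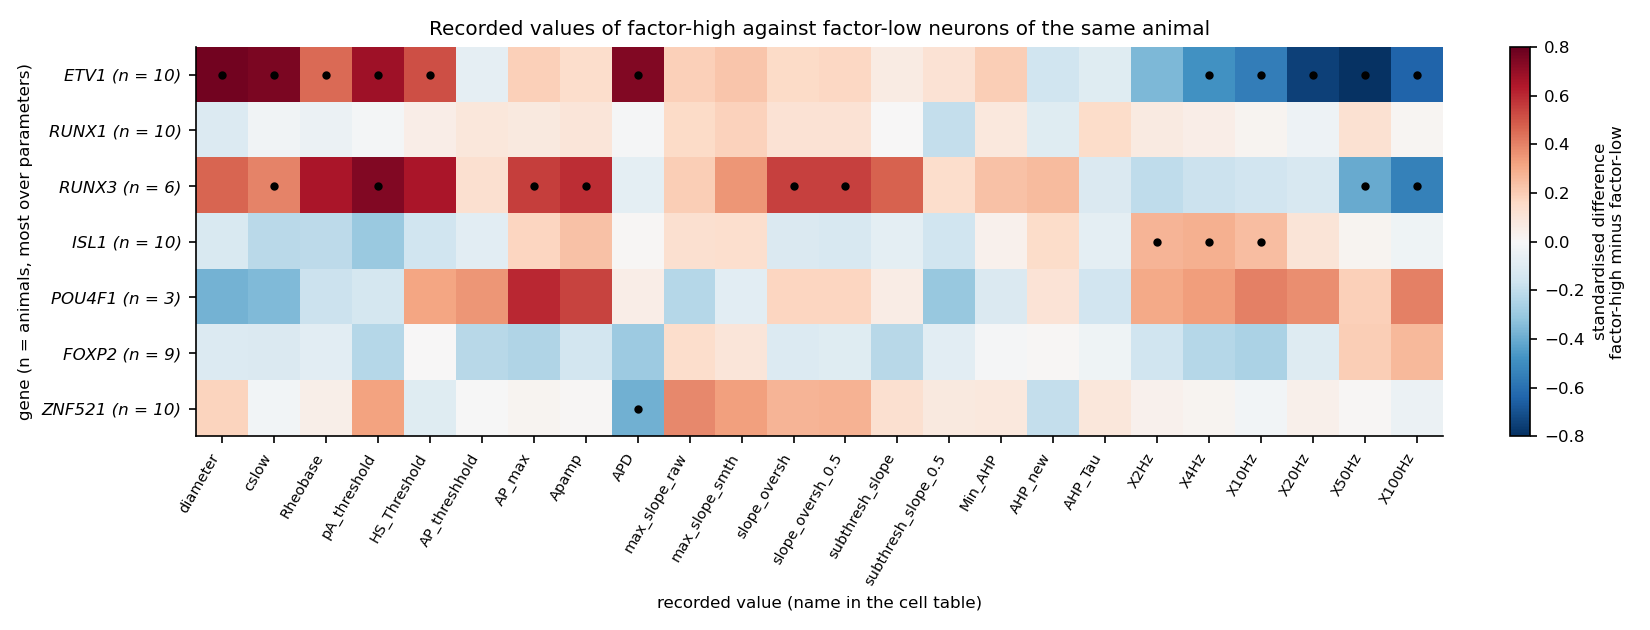
Standardised difference of 24 recorded values between factor-high and factor-low neurons of the same animal, with factors down the side (n is the number of animals) and parameters along the bottom; red is higher and blue lower in factor-high neurons, and dots mark an unadjusted exact sign-flip p under 0.05. The ETV1 row holds 11 of the 23 dots and reaches from 0.77 for diameter to -0.79 at 50 Hz, and 0 pairs pass after adjustment.

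Time in culture was compared within animals over sums of 9, 8 and 3 animals at 1, 2 and 3 days. ETV1 had a median of 16.8, 30.4 and 10.04 CPM per neuron at 1, 2 and 3 days, and RUNX1 16.9, 14.5 and 4.56 CPM. No member passed. At 2 days the fit called 0 of 23122 genes (0%) by edgeR's quasi-likelihood test, with 839 at an unadjusted p under 0.05 and 42 by DESeq2, and at 3 days 1 gene (0.00432%), no member. The FOXP2 difference at 3 days was 2.06 ± 0.96 (log2, SE, 3 animals at 3 days; adjusted p = 0.423 by edgeR), and it was the 1 member with an unadjusted p under 0.05. Its sums at 3 days were 13.02, 13.08 and 10.8 CPM in animals 2, 4 and 7, against 7.52, 5.14 and 0.140 CPM at 1 day in the same animals.

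Age was fitted as a slope per week over neurons at 1 day, where each animal has 1 age, so that age and animal cannot be told apart. Of 19731 genes 0 passed (0%) by edgeR's quasi-likelihood test, with 1224 at an unadjusted p under 0.05 and 53 called by DESeq2. The FOXP2 slope was -0.35 ± 0.17 per week on the log2 scale (SE; adjusted p = 0.82, edgeR), and it was -0.11 without animal 3 and -0.58 without animal 10. Those of ETV1, ISL1, RUNX1 and ZNF521 ran from -0.13 to 0.13, and that of ETV1 was -0.02 without animal 1 and -0.25 without animal 7.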

How the data were processed

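Neurons were drawn whole into 2 pipettes for Smart-Seq2, per the labels' protocols, and bcl2fastq 2.20 is listed in the submitters' processing notes. No aligner, counter, genome build or annotation is given in the sources used here. Reads carry no molecular identifiers or strand, so overlapping and near-identical genes cannot be told apart. The authors' deposited gene table holds estimated counts, unscaled; 52.1% of its values above 0 were not whole. The deposited cell table holds other values: the animal of each neuron and recorded parameters without stated units, and 43 of its rows have no sample used here. Symbols were paired with 14867 of 30420 identifiers.

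CPM per neuron used all genes (log2 values with a pseudocount of 1). For each animal, counts of a class (2 or more neurons on each side) or of a day (3 or more) were added up, rounded, and tested with edgeR 4.0.16 (TMM, filterByExpr, quasi-likelihood, animal as a block, since sums of 1 animal pair; Benjamini-Hochberg over all genes at 0.05). Log2 CPM of sums had a prior count of 2. Recorded values used an exact sign-flip test over animals with at least 3 neurons a side, adjusted over 168 pairs; parameters needed a value in 70% of neurons. The replicate is the animal, and 10 animals limit precision. DESeq2 1.42.0, limma 3.58.1, other cutoffs, filters and scalings, and leaving out each animal were tried. Tests were run on simulated data first.

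Named genes are all members, called list genes (at most the 4 largest), the 3 nearest genes and the largest recorded pair per factor; EBF1, ATF3, RET, SCN10A, POU4F2, PRX, MAG, single neurons and the FOXP2 sums by day were chosen after values were seen. Members, lists and cutoffs were chosen with earlier results of these data known. LMO3, LMO4, CTBP2, SOX4, MAFA, ZEB2, INSM1, MRGPRD, CALCA, NEFM, NEFH, GLUL, S100B and CD3G were among the list genes with no paired identifier, and some list genes are not reported here. Satellite glia genes (0 of 6 called) and T cell genes (0 of 3) were also read in the OSMR comparison. No genome was used, so no sequence or position is printed.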

Additional observations from a re-analysis of the deposited data

Results flagged for a closer look

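Of 58 groups of 4 to 10 animals, 3 held an animal far from the others (5.17%), and chance gives about 1 in 20. RUNX3 in the other neurons of the OSMR comparison was 1.48 on the log2 CPM scale in animal 1 (2.63 CPM, 16 counts over 5 neurons), against 0 to 0.336 CPM in the other 7 animals. ISL1 in TRPM8-positive neurons was 8.01 in animal 3 (258 CPM, 2 neurons), against 72.4 to 122.9 CPM in the other 7. Split at the animal's own median, the APD of ETV1-high neurons exceeded that of ETV1-low neurons by 2.79 in animal 1, against -0.0804 to 1.26 in the other 9.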

How the results depend on the processing

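ETV1 kept its direction and call under every alternative run in the OSMR-positive and ADCYAP1-high comparisons. For recorded values 0 pairs passed under each of the 18 alternatives run. The exact sign-flip test cannot go below p = 0.00195 with 10 animals, and its limit is higher with fewer. This 0 is therefore no measure of stability. The number of genes called in the OSMR comparison (1113) was 716 with no replicate block, 1974 with DESeq2, 291 and 1713 with the lower and higher cutoff, 513 at day 1 only and 757 to 1034 leaving out 1 animal. For ADCYAP1 (1122) it was 2309 with DESeq2, 711 without neurons above several cutoffs, 697 at day 1 only and 701 to 1151 leaving out 1 animal (701 without animal 4, 720 without animal 9). For TRPM8 (1) it was 52 with DESeq2, 4 with limma, 16 with the higher cutoff, 9 without neurons above several cutoffs, 3 with TRPM8 at 500 CPM or more (chosen after seeing the data) and 1 to 1 leaving out 1 animal. Day 2 gave 42 with DESeq2 and 0 to 1 leaving out 1 animal; day 3 gave 3 without the low-count filter, 40 with no replicate block, 743 with DESeq2 and 0 to 1 leaving out 1 animal; age gave 53 with DESeq2. The causes were not tested.

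Uncalled members changed sign as follows (log2). In OSMR-positive neurons ISL1 was 0.069 without neurons above several cutoffs and 0.036 at day 1, and FOXP2 0.0056 without neurons above several cutoffs. In ADCYAP1-high neurons FOXP2 was -1.54 with no replicate block, -0.12 with limma, -0.18 with the higher cutoff and -1.07 without neurons above several cutoffs, and ZNF521 -1.61 with no replicate block and -0.081 without neurons above several. In TRPM8-positive neurons RUNX1 was 0.17 with the lower cutoff and 0.85 at 500 CPM, ISL1 -0.26 without neurons above several, and ZNF521 -0.67 with the higher cutoff and -0.25 to 1.11 leaving out 1 animal. At day 2 ETV1 was -0.17 with no replicate block and -0.0080 to 0.36 leaving out 1 animal, RUNX1 -0.39 to 0.022 and ISL1 -0.037 to 0.29. At day 3 RUNX1 was 0.014 with size factors, 0.016 with DESeq2 and -0.69 to 0.45 leaving out 1 animal. Of recorded differences, ETV1 and APD was -0.096 in ADCYAP1-high neurons, ISL1 and pA_threshold 53.3 split at 10 CPM, and RUNX1 and subthresh_slope_0.5 1.21 in ADCYAP1-high neurons and 0.204 at day 1. In ADCYAP1-high neurons the split was at the animal's median among those neurons alone.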
